A study of Mus minutoides with 4 samples.

Results

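The BAF complex is the mammalian SWI/SNF chromatin remodeler, a multi-subunit machine that uses ATP to slide or evict nucleosomes. The transcripts described here are those of 10 of its subunits, *Smarca2*, *Smarca4*, *Smarcc1*, *Smarcc2*, *Smarcd1*, *Smarcd2*, *Smarcd3*, *Arid1a*, *Arid1b* and *Actl6a*, chosen by gene name among the 41325 genes of each library. All 10 were found and all 10 passed the filter on low reads. The libraries came from bulk RNA of *M. minutoides* (African pygmy mouse) cells. The iPSC group was lines 6 and 10, made from tail-tip fibroblasts by electroporation of PiggyBac plasmids that carry *Oct3/4*, *Klf4*, *Sox2* and *c-Myc*, then *Glis1*, *Nanog* and *Lin28a*, under doxycycline, with a plasmid for the doxycycline activator, EGFP and neomycin resistance. The iPSC lines were seeded as single cells of a colony, so each is a clone, and doxycycline had been withdrawn before they were derived. Growth was in 2i medium on feeder cells, growth-arrested mouse embryonic fibroblasts. The fibroblast group was lines 1 and 2, primary cells grown from the tail tip in medium with serum and not reprogrammed. The labels give no age or sex. There was 1 library per line (n = 2 per group). Whether the lines of a group have different donor animals is not said in the sources used here, and the p-values cover only the spread among these libraries, which may be technical. Cell type, medium and feeder cells cannot be told apart.

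The subunits of BAF come in paralog families, and a complex takes its members from each family by cell type. SMARCA4 (BRG1) and SMARCA2 (BRM) are the alternative ATPases. The SMARCC and SMARCD proteins form the core with SMARCB1 and SMARCE1, and ARID1A or ARID1B marks the canonical complex, while ACTL6A is an actin-related subunit next to the ATPase. In *M. musculus* embryonic stem cells the complex is known as esBAF. It is built around SMARCA4, SMARCC1, SMARCD1, ARID1A and ACTL6A, and it is known for low or absent SMARCA2, SMARCC2 and SMARCD3.

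Exon reads summed to between 33084850 and 36694828 per library. TPM (exon reads per exon length, scaled to the same sum in each library) was used to compare levels of different genes, and edgeR's quasi-likelihood test on exon reads to compare the groups. Genes were called at an adjusted p below 0.05 together with a fold above 2. Of 17777 genes tested, iPSCs had 27.1% called higher and 22.3% called lower, or 49.4% in either direction. Scaling by total counts instead of TMM gave a split of 5768 higher and 3028 lower, against 4818 and 3962, and the median log2 fold change of these genes was 0.36 instead of 0.08. All 12 pluripotency markers were called higher in iPSCs, with a summed TPM of 6659 and 7397 in lines 6 and 10 against 1.41 and 1.72 in fibroblast lines 1 and 2. Of 20 fibroblast markers 12 were called lower and 1 higher (*Fbln1*, chosen after its value was seen). None was at 0 in any library, and their summed TPM was 10293 and 5427 in iPSC lines 6 and 10, against 34097 and 39716 in the fibroblasts. Blood and macrophage markers (6 of 8 called higher) summed to 61.7 and 175 TPM in iPSCs against 8.34 and 7.84 TPM in fibroblasts, where *Adgre1* and *Tyrobp* were at 0 in both. Endothelial markers summed to 28.7 and 21.1 TPM in iPSCs against 1.04 and 1.44 TPM in fibroblasts. *Tek*, named after its value was seen, made up most of the iPSC sum, at a mean of 17.3 TPM. Neuronal markers (3 of 7 tested called higher, 1 lower) summed to 361 and 481 TPM in iPSCs against 78.7 and 84.2 TPM in fibroblasts. Most of this was *Tubb3*, named after its value was seen, at means of 381 TPM in iPSCs and 73.4 TPM in fibroblasts. Keratinocyte markers (1 of 5 higher, 1 lower) summed to 9.13 and 8.59 TPM in iPSCs against 14.4 and 13.9 TPM in fibroblasts. Reads were placed on the *M. musculus* build GRCm38, so a gene can lose reads where the species differ. The loss can differ between genes, which limits the paralog shares and orders of levels below. RNA of the mouse feeder cells would not have this loss. The part of other cells, feeder cells included, in the results below was not tested. In bulk RNA fewer cells of a type and less RNA per cell cannot be told apart.

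In each of the 4 paralog families the transcript of the member known from the embryonic stem cell complex was the most abundant in iPSCs. It held a larger share of its family there than in fibroblasts. *Smarca4* and *Arid1a* were the most abundant of their families in fibroblasts too. Only RNA was measured, so the protein makeup of the complex is not shown. *Smarcc1*, *Smarcd1* and *Arid1a* were called higher, and *Smarca2*, *Smarcc2* and *Smarcd3* lower. That is 3 of 10 members in each direction, beside 27.1% and 22.3% of all genes. By the adjusted p alone, with no fold threshold, 4 members were higher and 5 lower, where 37.2% of all genes were higher and 33.6% lower (70.8% in all). The remaining gene was *Smarca4*. The median log2 fold change of the members was -0.26, and that of all genes tested 0.08. TPM of the groups did not overlap for any member (5 higher and 5 lower in iPSCs), and the same held for 86.5% of all genes tested, with 48.7% higher and 37.8% lower.

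**Figure D1:**
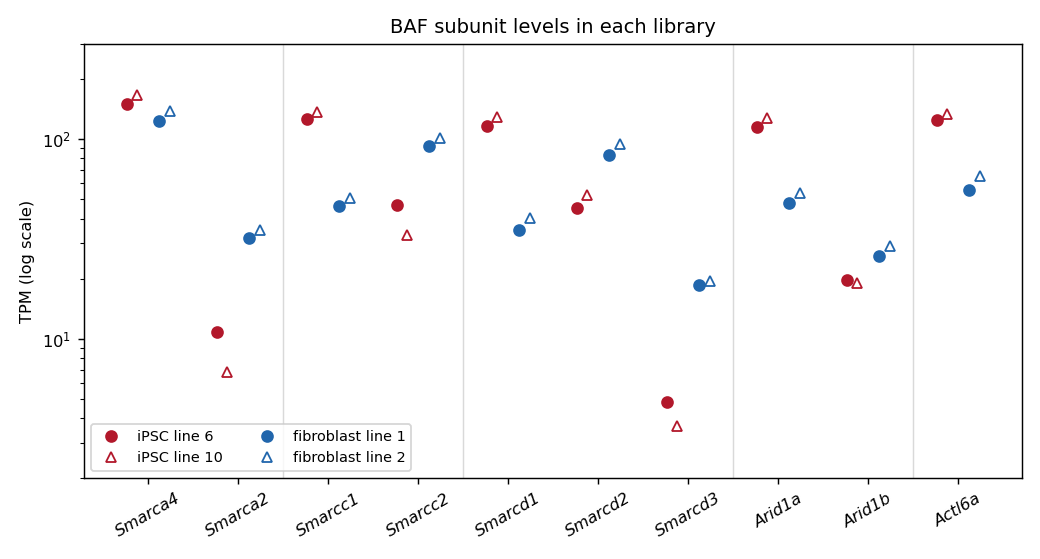
TPM (log axis) of the 10 BAF subunit genes in iPSC lines 6 and 10 (red) and fibroblast lines 1 and 2 (blue), each point a library, with families set apart by vertical lines. *Smarcc1*, *Smarcd1*, *Arid1a* and *Actl6a* lie above 110 TPM in both iPSC libraries and below 70 TPM in both fibroblast libraries, and *Smarca2* and *Smarcd3* are the lowest members in iPSCs.

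Of the ATPases, *Smarca4*, on chromosome 9 from 21616169 to 21704230 of GRCm38 (identifier ENSMUSG00000032187), was the most abundant member in every library. Its TPM was 149 and 166 in iPSC lines 6 and 10, against 124 and 139 in fibroblast lines 1 and 2. The groups were close to each other, and its log2 fold change was 0.13 (standard error, SE, 0.08, edgeR adjusted p = 0.183). Over the alternatives it was 0.02 to 0.42, and *Smarca4* was called in none of them. *Smarca2*, the other ATPase gene (chromosome 19, 26605050 to 26778322), had 10.8 and 6.78 TPM in iPSC lines 6 and 10, against 31.8 and 35.2 TPM in fibroblasts. Both iPSC libraries were well under both fibroblast libraries, and line 10 was the lower of the iPSC lines. Its log2 fold change was -2.05 (SE 0.25, edgeR adjusted p = 0.00238).

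The ratio of *Smarca4* to *Smarca2* within a library, which does not depend on scaling between libraries, was 13.8 in iPSC line 6 and 24.5 in line 10, against 3.90 and 3.96 in the fibroblast lines. On the log2 scale the iPSC minus fibroblast difference was 2.23, from means of 4.20 ± 0.59 in iPSCs and 1.97 ± 0.0145 in fibroblasts (SD, n = 2 each). *Smarca2* made up 6.76% and 3.92% of the summed TPM of the ATPase genes in iPSCs and 20.4% and 20.2% in fibroblasts. In TPM, which has no TMM scaling, the summed level itself was alike in the groups. It was 166 ± 8.95 TPM in iPSCs against 165 ± 13.2 TPM in fibroblasts (SD, n = 2 each), and the libraries of the groups overlapped.

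The SMARCC proteins are scaffolds that hold the core of the complex. *Smarcc1* (chromosome 9, 110117708 to 110240178) had 127 and 136 TPM in iPSC lines 6 and 10, against 46.2 and 50.5 TPM in fibroblasts. It rose in iPSCs with a log2 fold change of 1.31 (SE 0.07, edgeR adjusted p = 0.000339). *Smarcc2* (chromosome 10, 128459248 to 128490482) went the other way, with 47.0 and 33.2 TPM in iPSCs against 92.8 and 102 TPM in fibroblasts. Its log2 fold change was -1.40 (SE 0.19, edgeR adjusted p = 0.00332), and again iPSC line 10 was the lower of the iPSC lines. The order of the paralogs was thus opposite in the groups. *Smarcc1* was 2.69 and 4.10 times *Smarcc2* in iPSC lines 6 and 10, and 0.498 and 0.496 times *Smarcc2* in the fibroblast lines. The difference of the log2 ratio was 2.74, from means of 1.73 ± 0.43 in iPSCs and -1.01 ± 0.00380 in fibroblasts (SD, n = 2 each).

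The SMARCD family has 3 members, which bind transcription factors and link them to the complex. *Smarcd1* (chromosome 15, 99702129 to 99713991) had the largest increase of the 10 members. Its TPM was 116 and 129.6 in iPSC lines 6 and 10, against 35.1 and 40.2 in fibroblasts, with a log2 fold change of 1.58 (SE 0.08, edgeR adjusted p = 0.000323). *Smarcd3* (chromosome 5, 24590818 to 24624411), known for its part in heart and muscle development in *M. musculus*, had the largest decrease. It was at 4.82 and 3.64 TPM in iPSCs, against 18.5 and 19.4 TPM in fibroblasts, with a log2 fold change of -2.28 (SE 0.19, edgeR adjusted p = 0.000797). Between 70.4% and 84.3% of its exon reads were placed uniquely, a lower share than in any other member. On unique exon reads its log2 fold change was -2.39 (edgeR adjusted p = 0.00142). *Smarcd2* (chromosome 11, 106263179 to 106272972), known for its part in granulocyte development, had 45.3 and 52.2 TPM in iPSCs against 83.0 and 94.9 TPM in fibroblasts. It missed the fold threshold by little, with a log2 fold change of -0.99 (SE 0.09, edgeR adjusted p = 0.00107). It was called lower without iPSC line 10 or without fibroblast line 1.

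*Smarcd1* made up 69.8% and 69.9% of the summed *Smarcd* TPM in iPSC lines 6 and 10, against 25.7% and 26.0% in fibroblasts. *Smarcd2* made up 27.3% and 28.2% in iPSCs, against 60.7% and 61.5% in fibroblasts. The leading paralog was thus *Smarcd1* in iPSCs and *Smarcd2* in fibroblasts. The share of *Smarcd3* was 2.91% and 1.96% in iPSCs and 13.6% and 12.5% in fibroblasts. The ratio of *Smarcd1* to *Smarcd3* was 24.0 and 35.6 in iPSC lines 6 and 10, against 1.89 and 2.07 in fibroblasts. Its log2 difference of 3.88 was the largest of the 5 pairs compared. For *Smarcd1* to *Smarcd2* the log2 difference was 2.57, from means of 1.33 ± 0.03 in iPSCs and -1.24 ± 0.000620 in fibroblasts (SD, n = 2 each).

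**Figure D2:**
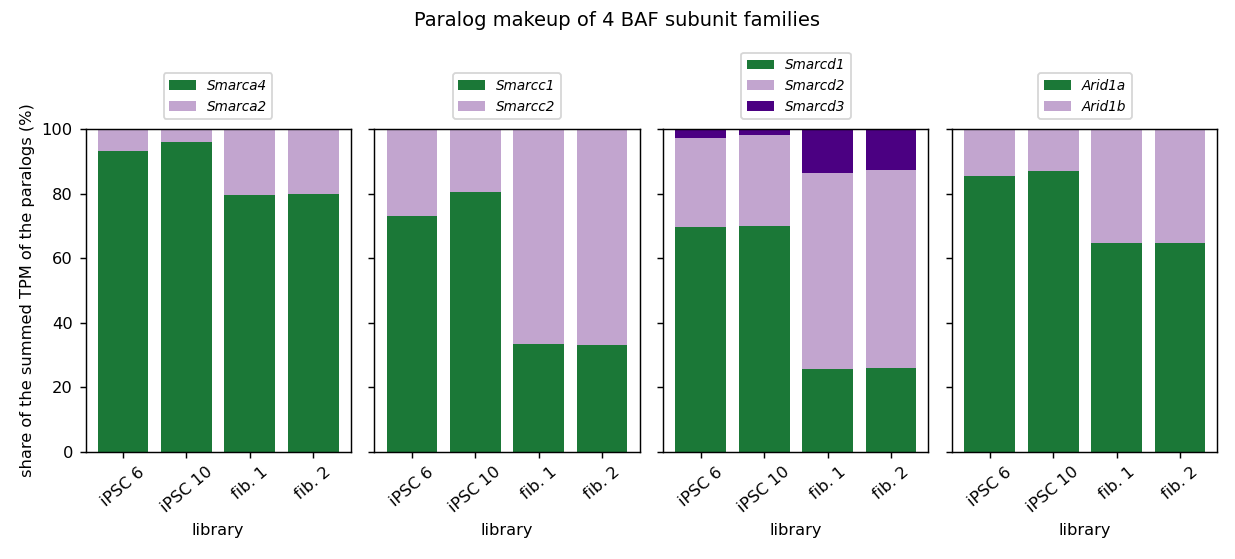
Share (%) of the summed TPM of each paralog family held by each gene, in iPSC lines 6 and 10 and fibroblast lines 1 and 2 (fib.), each bar a library. The green paralog is the larger part in iPSCs in all 4 families, and in fibroblasts only for *Smarca4* and *Arid1a*.

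The ARID1 proteins bind DNA and mark canonical BAF. *Arid1a* (chromosome 4, 133679008 to 133756769) had 116 and 128 TPM in iPSC lines 6 and 10, against 47.7 and 53.7 TPM in fibroblasts. It rose by 1.13 on the log2 scale (SE 0.08, edgeR adjusted p = 0.000496). On total gene reads, which add intron reads, its value was 0.99, which did not pass the fold threshold. *Arid1b* (chromosome 17, 4994332 to 5347656) had 19.7 and 18.9 TPM in iPSCs against 26.1 and 29.3 TPM in fibroblasts. Its log2 fold change was -0.65 (SE 0.07, edgeR adjusted p = 0.00191), which did not pass the fold threshold. *Arid1a* was the more abundant paralog in all 4 libraries. The ratio to *Arid1b* was 5.88 and 6.75 in iPSC lines 6 and 10, against 1.83 in each fibroblast line. The summed TPM of the pair was 141 ± 7.93 in iPSCs and 78.4 ± 6.47 in fibroblasts (SD, n = 2 each), which is 1.80 times as much in iPSCs. For *Smarcc* and *Smarcd* the same ratio of sums was 1.18 and 1.21. These sums are in TPM with no TMM scaling, which limits small differences between the groups. Over the genes of the main fit the median log2 ratio of group means was 0.16 in TPM, against 0.08 in that fit.

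*Actl6a* (chromosome 3, 32706298 to 32726973) encodes the actin-related subunit of proliferating cells, which neurons replace with ACTL6B. It had 125 and 133 TPM in iPSC lines 6 and 10, against 55.3 and 65.5 TPM in fibroblasts. Its log2 fold change of 0.97 (SE 0.08, edgeR adjusted p = 0.000743) did not pass the fold threshold, and with total counts in place of TMM it did, at 1.26. *Actl6b* was at or under 3 exon reads in every library and was not tested.

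For each of the 5 paralog pairs the iPSC ratios were above the fibroblast ratios in both libraries of each group. An exact permutation test over the 4 libraries gave a two-sided p = 0.333 for every pair, also after adjustment over the 5, and this is the smallest p that the design allows. The errors of the edgeR fit, combined for the genes of a pair, give another measure of spread. The difference of the paralogs' log2 fold changes had an SE between 0.11 (*Arid1a* and *Arid1b*) and 0.26 (*Smarca4* and *Smarca2*), against differences of 1.78 to 3.86. This SE takes the errors of the paralogs as independent, which was not tested, so it can be too small where they move in opposite directions. The SD of the log2 ratio in iPSCs was 0.59 for *Smarca4* to *Smarca2* and 0.03 for *Smarcd1* to *Smarcd2*. On intron reads the difference was smaller for all 5 pairs, at 1.10 for *Smarcd1* to *Smarcd2* and 0.66 for *Arid1a* to *Arid1b*, which had 2.57 and 1.78 in TPM. Smaller values on intron reads were not particular to these pairs. Of all genes tested 36.1% were called on intron reads and 49.4% on exon reads. The median log2 fold change was 6.15 on intron and 10.8 on exon reads for the pluripotency markers, and -1.84 and -2.21 for the fibroblast markers. Without iPSC line 6 or line 10 in turn, the *Smarca4* to *Smarca2* log2 difference was 2.64 and 1.81, and that of *Smarcc1* to *Smarcc2* was 3.04 and 2.44.

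The order of levels differed between the groups below the first place. In iPSCs *Smarca4* led, followed by *Smarcc1*, *Actl6a*, *Smarcd1* and *Arid1a*, whose libraries overlapped from each gene to the next, at group means of 131 to 122 TPM. Then came *Smarcd2* and *Smarcc2*, which overlapped each other, and *Arid1b*, *Smarca2* and *Smarcd3*, each apart from the gene before. In fibroblasts *Smarca4* was followed by *Smarcc2* and *Smarcd2*, which overlapped, then by *Actl6a*. *Arid1a* and *Smarcc1* overlapped, as did *Smarcd1* and *Smarca2*, and *Arid1b* and *Smarcd3* came last. All 10 members were lower in fibroblast line 1 than in line 2, with line 2 at 1.05 to 1.18 times line 1. Summed TPM of the fibroblast markers was also higher in line 2, at 1.16 times line 1, and that of the blood and keratinocyte markers was lower. The share of all genes in this direction was not counted, so it is not read as a trait of the members. TPM has the same sum in each library, and in line 1 a single gene, *CT010467.1*, took 68830 TPM. Its part in the lower levels of line 1 was not tested.

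The iPSC lines differed from each other most in the 3 members that were called lower. *Smarca2* was 1.60 times as high in line 6 as in line 10, *Smarcc2* 1.42 times and *Smarcd3* 1.33 times. The summed TPM of the 20 fibroblast markers was 1.90 times as high in line 6, at 27.9% of the fibroblast mean in line 6 and 14.7% in line 10. As a share of the fibroblast mean, *Smarca2* stood at 32.3% and 20.2%, *Smarcd3* at 25.5% and 19.2% and *Smarcc2* at 48.3% and 34.1% in lines 6 and 10. The members called higher, with *Smarca4*, *Actl6a* and *Smarcd2*, were at 0.867 to 0.937 times in line 6 what they were in line 10. *Arid1b* was near 1, at 1.04. With 1 library per line, no test of the lines was made, and the part of fibroblast-type RNA in the differences was not tested.

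**Figure D3:**
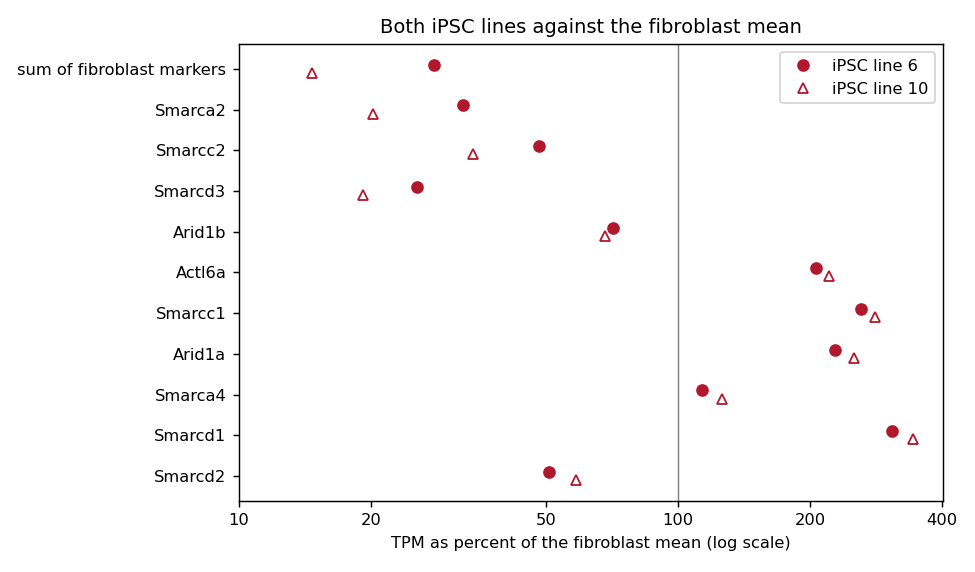
TPM of each BAF subunit gene, and of the sum of 20 fibroblast markers, as percent of the fibroblast mean (log axis) in iPSC line 6 (circles) and line 10 (triangles), ordered by the ratio of line 6 to line 10. The marker sum, *Smarca2*, *Smarcc2* and *Smarcd3* are further to the right in line 6, and the members above 100% are further to the right in line 10.

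Intron reads are taken to come mostly from unspliced transcripts, and they enter neither TPM nor exon reads. On intron reads 1 member was called higher and 2 lower, beside 19.1% and 17.0% of the 17329 genes tested (36.1% in either direction). *Smarcc1* was the higher one, with 714 and 685 intron reads in iPSC lines 6 and 10 against 178 and 191 in fibroblasts (log2 fold change 1.36, SE 0.13, edgeR adjusted p = 0.000267). The lower ones were *Smarca2* (log2 fold change -1.61, SE 0.21) and *Smarcd3* (-2.12, SE 0.26). On exon reads the same 3 genes had 1.31, -2.05 and -2.28. *Smarca4* was at 0.05 (SE 0.12) on intron reads, and *Smarcd2* at -0.62 (SE 0.20), neither of them called.

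In other members the intron and exon values lay further apart. *Smarcd1* had 218 and 186 intron reads in iPSCs against 98 and 101 in fibroblasts. The log2 fold change on these reads was 0.46 (SE 0.17, edgeR adjusted p = 0.0623), where exon reads gave 1.58. *Actl6a* had 418 and 420 intron reads in iPSCs against 272 and 282 in fibroblasts, and its log2 fold change on them was 0.04 (SE 0.13), where exon reads gave 0.97. For *Arid1b* the intron value was -0.01 (SE 0.13) and the exon value -0.65. *Arid1a* and *Smarcc2* were between, at 0.65 and -0.74 on intron reads. The intron share of a gene's reads is a ratio within each library. It was lower in iPSCs for *Actl6a* and *Smarcd1* and higher for *Arid1b*. It was 7.30% and 7.39% for *Actl6a* in iPSCs, against 12.0% and 11.4% in fibroblasts. For *Smarcd1* it was 4.10% and 3.40% in iPSCs, against 6.94% and 6.79% in fibroblasts. *Arid1b* had 19.3% and 20.1% in iPSCs, against 11.8% and 12.4% in fibroblasts. The groups' shares did not overlap for any of the 10 members, with 7 higher and 3 lower in iPSCs, beside 48.8% and 26.6% (75.4% in all) of the 10350 genes with at least 50 intron and 50 exon reads on average. Whether the exon and intron changes of a gene differ was not tested.

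**Figure D4:**
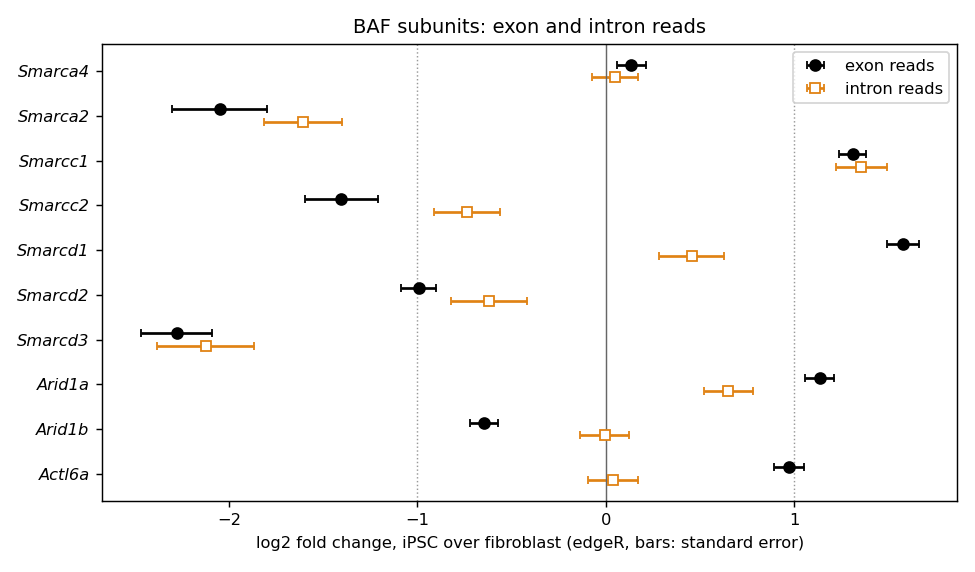
Log2 fold change of iPSCs over fibroblasts from edgeR on exon reads (black) and on intron reads (orange), with standard errors, for the 10 BAF subunit genes (n = 2 libraries per group, dotted lines at a fold of 2). *Smarca4*, *Smarcc1* and *Smarcd3* have nearby values on both kinds of read, and *Actl6a* and *Arid1b* lie near 0 on intron reads.

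The other subunits of BAF and of its variants PBAF (polybromo-associated) and ncBAF (non-canonical) numbered 21, of which 20 passed the filter. Of these 20, iPSCs had 5 called higher and 1 called lower, beside 27.1% and 22.3% of all genes, and with total counts or upper-quartile scaling 7 and 0. Their median log2 fold change was 0.07, and that of all genes tested 0.08. *Bcl11a*, a zinc finger transcription factor that is also a BAF subunit, was the furthest apart, at 12.9 and 16.0 TPM in iPSC lines 6 and 10 against 0.131 and 0.115 TPM in fibroblasts (log2 fold change 6.58, SE 0.20, edgeR adjusted p = 0.00016). *Bcl7a* had 5.69 and 7.38 TPM in iPSCs against 1.62 and 1.83 TPM in fibroblasts, and *Ss18l1*, whose protein replaces SS18 in neurons, 12.7 and 15.0 TPM against 5.22 and 5.05 TPM. Their log2 fold changes were 1.78 and 1.29. On intron reads 1 of the 20 was called higher and 2 lower, beside 19.1% and 17.0% of all genes tested on them. *Bcl11a* (3.72) was the higher one, and *Actb* (-1.65) and *Brd9* (-1.10) were the lower ones. *Bcl7a* (0.83) and *Ss18l1* (0.53) were not called on intron reads. *Ss18* itself had 116 and 113 TPM in iPSCs against 56.7 and 60.7 TPM in fibroblasts (log2 fold change 0.84), so it stayed the more abundant of the pair.

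The ncBAF complex lacks ARID1 proteins and carries BRD9 with BICRA or BICRAL. *Bicral* was called higher in iPSCs, at 42.9 and 43.8 TPM against 18.5 and 20.1 TPM in fibroblasts (log2 fold change 1.04), and was not called on total gene reads (0.84). *Brd9*, a bromodomain subunit, was called lower, at 15.4 and 13.4 TPM in iPSCs against 27.7 and 29.2 TPM in fibroblasts (log2 fold change -1.11, SE 0.11, edgeR adjusted p = 0.0013). With total counts in place of TMM *Brd9* was at -0.82 and no longer passed the fold threshold. *Bicra*, chosen after its value was seen, was at -0.87 and not called. Of the PBAF genes, *Pbrm1* had a log2 fold change of -0.64 and *Phf10* one of -0.29, and *Arid2*, also chosen after its value was seen, one of 0.92. None of the 3 was called.

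*Dpf3*, a PHD finger subunit of heart and muscle, was called higher at few reads, with 34 and 17 exon reads in iPSC lines 6 and 10 against 2 in each fibroblast line. The ratio of counts was 9.87 at library sizes normalized by TMM, with an exact 95% binomial interval of 3.63 to 37.6 that covers counting error only. Without fibroblast line 1 or 2 its log2 fold change was 2.53 and 2.51, against 2.51 with both, and it was not called (edgeR adjusted p = 0.0731 and 0.0751). It was also not called on total gene reads (0.37), by limma with no filter (0.56) or by the study's stated test on TPM (3.42). On intron reads its log2 fold change was 0.03 (SE 0.22), and it was not called. *Smarcb1*, *Actb* and *Dpf2* were not called on exon reads. *Smarcb1* was at 66.2 and 68.1 TPM in iPSCs against 39.6 and 44.0 TPM in fibroblasts (log2 fold change 0.56). *Actb*, the actin of the complex and of the cytoskeleton, was at -0.42 on exon reads. On intron reads it was called lower (-1.65, SE 0.13, edgeR adjusted p = 1e-04). *Dpf2* was at 70.7 and 65.2 TPM in iPSCs against 61.6 and 72.8 TPM in fibroblasts, so its groups overlapped, and its log2 fold change of -0.11 turned to 0.18 with total counts.

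**Figure D5:**
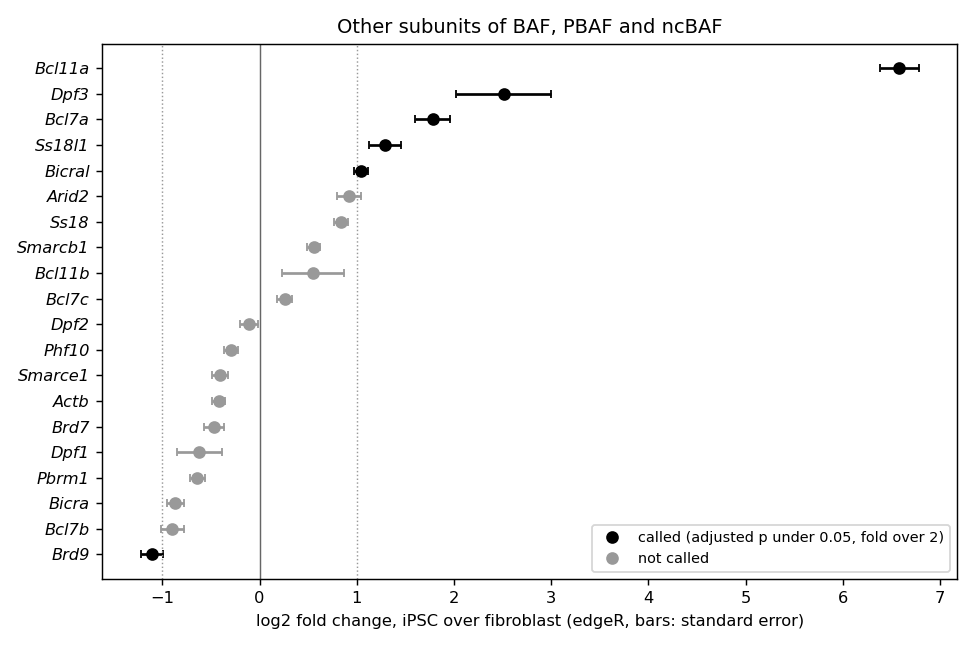
Log2 fold change of iPSCs over fibroblasts from edgeR on exon reads, with standard errors, for the 20 other BAF, PBAF and ncBAF subunit genes that passed the filter (n = 2 libraries per group, dotted lines at a fold of 2). Genes called (black) are *Bcl11a*, *Dpf3*, *Bcl7a*, *Ss18l1* and *Bicral* above 0 and *Brd9* below 0.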

How the data were processed

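RNA-seq libraries of 2 iPSC and 2 fibroblast lines were analysed. Per the labels, a kit named NEBNext Ultra II RNA was used, and the submitters' processing notes name GRCm38. No aligner, counting tool or use of strand is given in these sources, so reads of overlapping antisense genes cannot be told apart. The authors deposited, per gene, read counts (exon, intron and gene reads, total and unique), TPM and RPKM. The deposited TPM equalled exon reads per exon length scaled to a common total. RPKM and the deposited fractions (unique and intron shares) were not used. Exon lengths deposited by the authors were used for ratios of reads.

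Total exon reads were compared with edgeR 4.0.16 in R 4.3.3 (filterByExpr, TMM, quasi-likelihood test, prior count 2, Benjamini-Hochberg adjustment over all genes tested). Standard errors are the log2 fold change over the root of F. The fit was tested on simulated data, with dispersions taken from these libraries. Far fewer genes were changed there than were called here, evenly up and down, so it does not test the scaling of this comparison. Intron reads were fitted alike. Paralog ratios used TPM with no pseudocount. Members and lists were chosen with earlier results of these data known. All 10 members are named, with every called gene among the other subunits and 6 others of highest TPM, and up to 3 called genes each way from the neighbouring complexes. Alternatives were other scalings, filters, read types, fold thresholds, DESeq2 1.42.0, limma 3.58.1 on log2 TPM, the study's stated test on TPM, and each library left out. Exon-exon reads were added after seeing the data. No sequences were analysed here.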

Additional observations from a re-analysis of the deposited data

How the results depend on the processing

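The members *Smarca2*, *Smarcc1*, *Smarcc2*, *Smarcd1* and *Smarcd3* were called in the same direction under all 19 alternatives, and *Arid1a* under 18, total gene reads excepted. *Smarcd2* was called lower in 6 and *Actl6a* higher in 9 of the 19, for both with no fold threshold and with glmTreat (against a fold of 1.2) among these. The setting with no fold threshold is the main fit with that threshold removed, so it could not lose a call or change a direction. The study's stated test was called on a p that was not adjusted. No member changed its direction. Members called lower numbered 5 with no fold threshold and 5 with glmTreat. Other BAF subunits called higher numbered 3 on total gene reads, 9 with no fold threshold and 8 with glmTreat. Those called lower numbered 0 with upper-quartile scaling, total counts, limma in its 3 settings or the study's stated test, 8 with no fold threshold, 6 with glmTreat and 1 to 2 with a library left out (2 without iPSC line 6, *Bcl7b* being added). All genes called lower numbered 5965 with no fold threshold. *Dpf2*, called in none, changed sign, to 0.0701 with upper-quartile scaling, 0.18 with total counts, 0.0194, 0.0197 and 0.0194 with limma (pseudocount 1 TPM, 0.1 TPM, and 1 TPM with no filter) and 0.0159 with the study's stated test.

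All 5 differences of paralog log2 ratios kept their direction. On intron reads they were 1.70 for *Smarca4* to *Smarca2*, 2.11 for *Smarcc1* to *Smarcc2*, 1.10 for *Smarcd1* to *Smarcd2*, 2.67 for *Smarcd1* to *Smarcd3* and 0.66 for *Arid1a* to *Arid1b*. The *Smarcd1* to *Smarcd2* difference was 2.50 on total gene reads, 2.53 with a pseudocount of 1 TPM and 2.75 on exon-exon reads. The *Arid1a* to *Arid1b* difference was 1.63 on total gene reads and 1.91 on exon-exon reads. The cause was not tested. No paired analysis was made, because the sources used here do not say which fibroblast line or animal each iPSC line came from. Depth limits *Dpf3* and *Actl6b*, and 2 libraries per group limit every test.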

Other observations

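Of 20 ATPase genes of other remodelers, 4 were called higher and 3 lower in iPSCs, beside 27.1% and 22.3% of all genes tested. Their median log2 fold change was 0.19, and that of all genes 0.08. *Chd7*, a neural crest and stem cell remodeler, had 11.1 ± 3.15 TPM in iPSCs against 0.622 ± 0.0529 TPM in fibroblasts (SD, n = 2 each, log2 fold change 4.0). On intron reads its log2 fold change was 0.16 (SE 0.27), and it was not called. *Hells*, which supports DNA methylation, had 191 ± 5.24 TPM in iPSCs against 14.2 ± 0.404 TPM in fibroblasts (SD, n = 2 each, log2 fold change 3.62). *Smarcad1* had a log2 fold change of 2.15, and *Chd1*, named after its value was seen, one of 1.14. On intron reads *Hells* (3.37) and *Smarcad1* (1.64) were called higher, and *Chd1* (0.32) was not called. The lower ones on exon reads were *Smarca1*, an ISWI ATPase (-1.60), *Ercc6*, a DNA repair ATPase (-1.48), and *Chd1l* (-1.25). *Smarca1* was at -1.57 and -1.68 without fibroblast line 1 or 2 and then not called (edgeR adjusted p = 0.0752 and 0.0647), and *Chd1l* was at -0.96 and not called with total counts.

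ACTL6A is also a subunit of the INO80, TIP60 and SRCAP complexes. Of 24 other genes of these complexes, 5 were called higher and 0 lower with edgeR, beside 27.1% and 22.3% of all genes tested. By the adjusted p alone 8 were higher and 6 lower, beside 37.2% and 33.6%. The AAA+ ATPase genes *Ruvbl1* and *Ruvbl2* had nearly equal levels. *Ruvbl1* was at 275 ± 9.61 TPM in iPSCs against 64.6 ± 5.74 TPM in fibroblasts, and *Ruvbl2* at 275 ± 27.4 TPM in iPSCs against 64.6 ± 3.98 TPM in fibroblasts (SD, n = 2 each, log2 fold change 1.96 for each). *Yeats4*, which encodes a histone acetyl-lysine reader, was at 229.6 ± 21.2 TPM in iPSCs against 58.8 ± 2.47 TPM in fibroblasts (SD, n = 2 each, log2 fold change 1.83). The others called higher were *Uchl5* and *Trrap*, named after their values were seen. On intron reads *Ruvbl1* (1.63) and *Ruvbl2* (1.02) were called higher, and *Yeats4* (0.76), *Trrap* (0.74) and *Uchl5* (0.41) were not called.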
